A study of Mus musculus with 10 samples.

Results

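Macrophage polarisation genes were followed in skin wounds of diabetic mice that had received a miR-132 mimic or a control mimic. The set held 10 genes, chosen by name from the one-gene features of the array, out of 30627 genes with such a feature. Nos2 and Acod1 stood for inflammatory activation. Arg1, Chil3, Retnla, Mrc1, Cd163, Il10, Mgl2 and Clec10a stood for alternative activation. Each gene had 1 feature, and 9 of the 10 lay above the level filter, which asks for a mean over all arrays above 4.17 on the log2 scale and was passed by 17567 genes. Il10, at a mean of 3.84, did not pass it.

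The arrays came from 5 mice whose wounds had received miR-132 mimic and from 5 mice whose wounds had received control mimic. All 10 were male db/db mice, given in the labels as BKS(D)-Leprdb/JOrlRj on a C57BL/6 background, aged 11 weeks before they were caged singly and wounded. All of these mice carry the db mutation of the leptin receptor gene, so no mouse without it enters the comparison. Each mouse had 2 full-thickness wounds on the back, made with a 4 mm punch, and each wound edge was injected once, at 4 points, with 0.5 nmol of mimic in the in vivo transfection reagent RNA-LANCEr II. Both groups also received buprenorphine for pain. Wound-edge skin was taken on day 6, a bulk tissue of keratinocytes, fibroblasts, vessels, fat and infiltrating leukocytes. The sources used here state neither whether the 2 wounds of a mouse were pooled nor which arm of miR-132 the mimic carried.

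Macrophages of a healing wound shift over days from an inflammatory state to one that resolves inflammation and supports repair, and in diabetic wounds this shift is known to be delayed. Interferon-gamma and bacterial products switch on Nos2 and Acod1 in mouse macrophages, whereas interleukin-4 and interleukin-13, acting through the transcription factor STAT6, switch on Arg1, Chil3, Retnla, Mrc1, Mgl2 and Clec10a. Cd163 and Il10 rise with glucocorticoids or with interleukin-10 itself. Nos2 and Arg1 encode enzymes that draw on the same substrate, arginine. The markers are not exclusive to macrophages, and cells of mixed state occur.

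Because the arm that the mimic carried is not stated, both arms of the endogenous miR-132 are shown. The 3p arm of its neighbour miR-212 is given beside them, as an endogenous microRNA that shares a seed with miR-132. All these sequences are RefSeq's, in build GRCm38.p6, with the seed (bases 2 to 8) in capitals. miR-132-3p lies at chr11:75173723-75173744 on the plus strand.
mmu-miR-132-3p: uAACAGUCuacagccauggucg
mmu-miR-212-3p: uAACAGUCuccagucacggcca
mmu-miR-132-5p: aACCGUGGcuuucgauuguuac
The 3p arms of miR-132 and miR-212 carry the same seed, and the 5p arm of miR-132 carries another. The array's Mir132 feature, designed on the gene's own transcript, measured 3.38 ± 0.41 in miR-132 wounds and 3.21 ± 0.25 in control wounds (SD, n = 5 each), below the level filter, so it gives no reading of the delivered mimic.

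No polarisation gene passed the threshold between miR-132 and control wounds. Of the 10 genes, 0 reached an adjusted p of 0.05 in limma, where 0% of all 17567 genes tested did. Both inflammatory genes averaged lower with miR-132, and 7 of the 8 alternative genes averaged higher, against 45.5% higher among all genes tested. The count of alternative genes depends on 1 array. Without miR-132 replicate 4, Chil3 (-0.13), Mrc1 (-0.14), Cd163 (-0.10), Mgl2 (-0.11) and Clec10a (-0.06) averaged lower, and Retnla and Il10 stayed higher. Il10 is counted although it lies below the level filter. The median difference over the 10 genes was 0.10 on the log2 scale, beside -0.02 over all genes tested, and it was -0.11 without miR-132 replicate 4. Acod1 was the only one of the 10 with an unadjusted p under 0.05, a mark that 8.08% of all genes tested reached, 2.46% higher and 5.62% lower with miR-132. In 0 of the 10 genes were the groups free of overlap, against 0.928% of all genes tested. These 1420 genes under the unadjusted mark split into 433 higher and 987 lower with miR-132, and the split was 609 and 576 after a further quantile normalization and 158 and 1376 after centring each array on its median.

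**Figure D1:**
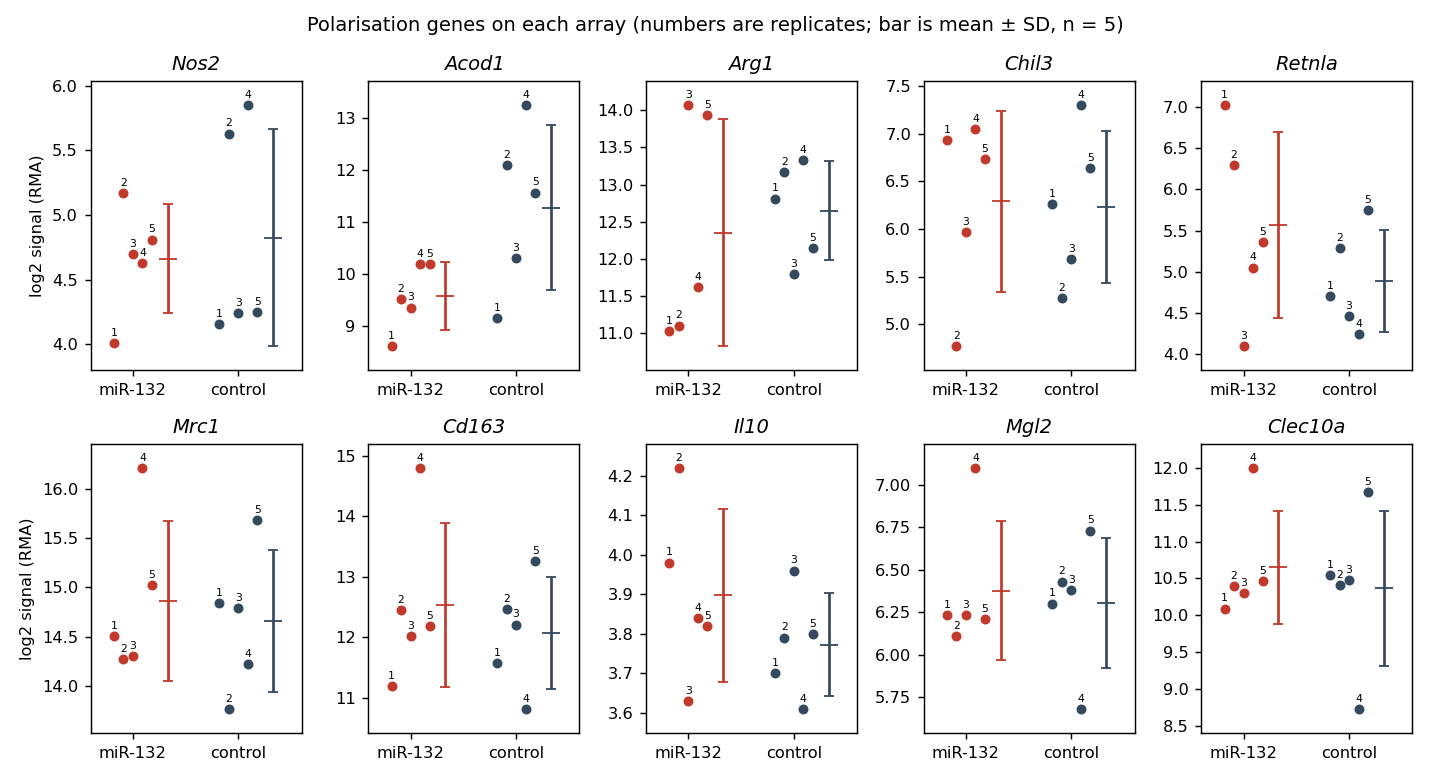
Log2 signal of each of the 10 genes on every array, miR-132 wounds left of control wounds, with replicate numbers above the points and the mean ± SD of 5 arrays beside them. The groups overlap in every panel. Control wounds spread widely for Acod1, between 9.16 and 13.25, and miR-132 replicate 4 stands above all other arrays for Mrc1, Cd163, Mgl2 and Clec10a.

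Acod1, the enzyme that makes the antimicrobial metabolite itaconate in activated myeloid cells, measured 8.62, 9.52, 9.36, 10.19 and 10.20 in miR-132 wounds, replicates 1 to 5. In control wounds it measured 9.16, 12.10, 10.31, 13.25 and 11.57. All 5 miR-132 arrays lay below the control mean, but control replicate 1 lay among them. Control wounds spanned a 17.0-fold range of Acod1 signal and miR-132 wounds a 2.99-fold range. The mean was 9.58 ± 0.66 with miR-132 and 11.28 ± 1.59 in controls (SD, n = 5 each), a log2 difference of -1.70 ± 0.70 (SE), or 3.25-fold lower on average. This difference did not pass limma's adjustment over all genes (unadjusted p of 0.0362, adjusted p of 0.598), and its unadjusted 95% interval ran from -3.27 to -0.13. Leaving out single arrays moved it between -2.23 (without control replicate 1, limma's unadjusted p of 0.0039) and -1.21 (without control replicate 4, unadjusted p of 0.0805). The unadjusted p was also over 0.05 without control replicate 2 or 5 or miR-132 replicate 1, 2 or 3, reaching 0.0837, and after quantile normalization (0.0533), with array weights (0.0642) and with a covariate for the hybridisation controls (0.0983).

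Nos2, the inducible nitric oxide synthase, measured 4.01, 5.17, 4.70, 4.63 and 4.81 in miR-132 wounds. In control wounds it measured 4.16, 5.63, 4.24, 5.85 and 4.25. Control replicates 2 and 4 stood above the other 8 arrays, and these were also the 2 arrays with the highest Acod1. The level was close to the filter in both groups, so the array had little range below it. The difference was -0.16 ± 0.38 (SE, limma's adjusted p of 0.932), with an unadjusted 95% interval from -1.01 to 0.69, and its sign turned without control replicate 4 (0.09), control replicate 2 (0.04) or miR-132 replicate 1 (0.0015).

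Across arrays Acod1 went with the neutrophil markers. The 9 neutrophil markers included the receptor genes Csf3r and Cxcr2, the collagenase gene Mmp8 and the lectin gene Clec4e. They averaged lower with miR-132 in 9 of 9 cases, against 54.5% lower among all genes tested, and 0 of them had an unadjusted p under 0.05. Their mean per array ran from 9.66 to 10.27 in miR-132 wounds and from 9.34 to 11.53 in control wounds. None was absent: all 9 lay above the level filter. However, S100a8 and S100a9 stood at the signal limit of 19.93 on 9 of 10 arrays and add almost nothing to the variation. Their lower averages rest on miR-132 replicate 5 alone. Clec4e is not exclusive to neutrophils, since activated macrophages also express it, and it is among the genes nearest to Acod1, given next. Across the 10 arrays Acod1 correlated with this mean at r = 0.90 (permutation p of 0.00044, adjusted p of 0.022 over 100 relations of 10 genes with 10 marker lists) and Spearman's rho = 0.92 (permutation p of 0.00059, adjusted p of 0.059). Without the arrays farthest from the median of the marker mean, control replicates 1 and 4, r was 0.81, and with each group centred on its own mean it was 0.89. Neither this r nor the covariate fit given below was repeated without Clec4e. With the macrophage markers listed further on Acod1 had r = -0.14 and rho = -0.18 (permutation p of 0.696 and 0.633), and with 6 monocyte markers r = 0.64 and rho = 0.61 (permutation p of 0.0466 and 0.0662, adjusted p of 0.556 and 0.662). Without miR-132 replicate 5 and control replicate 4, the r with monocyte markers was 0.61. Whether these correlations differ from the neutrophil one was not tested. With the neutrophil mean as a covariate in limma, an alternative added after the data were seen, the Acod1 difference was -0.77 ± 0.39 (SE, unadjusted p of 0.0793, adjusted p of 0.887). In bulk tissue, fewer cells of a type and less RNA per cell cannot be told apart.

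The genes most like Acod1 in their variation between arrays of a group were named by a fixed measure, the highest Pearson r over 10 arrays after each group was centred on its mean, among 12496 named genes. Arg2, the mitochondrial arginase, came first with r = 0.95, then Clec4e, a lectin receptor that senses fungal and mycobacterial glycolipids, with r = 0.94, and the zinc finger gene Zfp719 with r = 0.92. Arg2 itself measured 6.92 ± 0.33 in miR-132 wounds and 7.54 ± 0.77 in control wounds (SD, n = 5 each). For Nos2 the nearest genes were Zfp523 (r = 0.93), Med26 (0.91) and Mllt6 (0.90), all of them genes for nuclear proteins. These r values come from a search through all genes and carry no test.

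**Figure D2:**
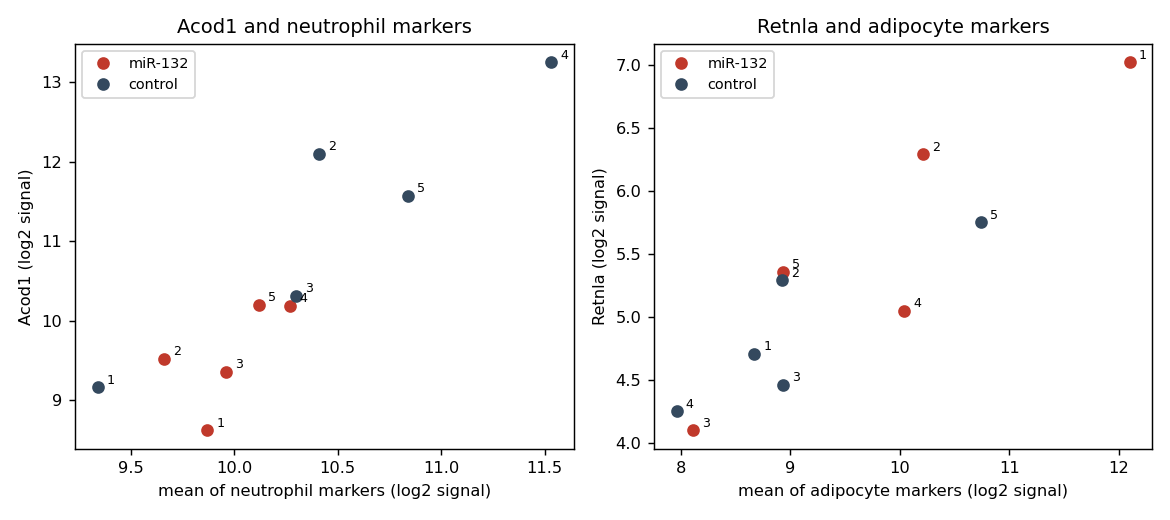
Left, Acod1 against the mean of 9 neutrophil markers; right, Retnla against the mean of 5 adipocyte markers, both axes in log2 signal, 1 point per array with its replicate number, miR-132 in red and control in dark blue. Acod1 follows the neutrophil mean (r = 0.90) and Retnla the adipocyte mean (r = 0.91).

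The promoter of Acod1 is shown because this gene had the largest difference of the set. It spans 250 bases before to 50 after a RefSeq start (chr14:103046762-103047061, plus strand, GRCm38.p6), 5′ to 3′. Capitals mark matches on either strand to an NF-kB-like pattern (GGGANNNNCC), a STAT6 pattern (TTCNNNNGAA) or a C/EBP pattern (TTGCNNAA), none of which overlapped another here.
Acod1 promoter: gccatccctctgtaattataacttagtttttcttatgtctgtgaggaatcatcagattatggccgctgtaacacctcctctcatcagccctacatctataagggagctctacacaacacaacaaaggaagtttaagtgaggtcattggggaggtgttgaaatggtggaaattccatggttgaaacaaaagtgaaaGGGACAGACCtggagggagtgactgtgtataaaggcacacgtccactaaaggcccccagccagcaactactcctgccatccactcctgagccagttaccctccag
Its only match in capitals is to the NF-kB-like pattern, beginning 55 bases before the start. This pattern occurred in 20.7% of 32851 mouse promoter windows of the same length and in 5 of the 6 windows found for the 10 genes, and a match is a description of letters only. An AP-1 pattern (TGANTCA) occurred in 7.8% of all windows and in 0 of the 6, and a PU.1 pattern (GAGGAA) in 28.3% and in 4 of the 6. The Acod1 window is among those 4, with a PU.1 match beginning 208 bases before the start. Neither pattern is in capitals.

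The alternative genes that encode an enzyme or a secreted protein were Arg1, Retnla, Chil3 and Il10, and limma called none of them. Arg1, which splits arginine into ornithine and urea, measured 11.03, 11.10, 14.07, 11.62 and 13.94 in miR-132 wounds, replicates 1 to 5. In control wounds it measured 12.81, 13.17, 11.79, 13.33 and 12.15. The miR-132 arrays parted into 2 above and 3 below every control array, an 8.22-fold range against 2.91-fold in controls. The means were therefore close, 12.35 ± 1.53 with miR-132 and 12.65 ± 0.66 in controls (SD, n = 5 each). The difference of -0.30 ± 0.68 (SE, limma's adjusted p of 0.929) had an unadjusted 95% interval from -1.81 to 1.22, and it turned to 0.03 without miR-132 replicate 1 and to 0.02 without replicate 2. Arg1 ran against the adipocyte marker mean across the 10 arrays, with r = -0.79 (permutation p of 0.00619, adjusted p of 0.155) and rho = -0.82 (permutation p of 0.00573, adjusted p of 0.143), which did not pass. The r was -0.81 without miR-132 replicate 1 and control replicate 5. The genes nearest to Arg1 were Rnf26 (r = 0.93), the potassium channel gene Kcng3 (0.91) and Fnip2, a folliculin partner (0.91).

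Retnla, which encodes the secreted resistin-like protein alpha, measured 7.02, 6.29, 4.10, 5.05 and 5.36 in miR-132 wounds. In control wounds it measured 4.71, 5.29, 4.46, 4.25 and 5.75. Replicates 1 and 2 of miR-132 lay above every control array and replicate 3 below every one. Retnla averaged 5.56 ± 1.13 with miR-132 and 4.89 ± 0.62 in controls (SD, n = 5 each). The difference of 0.67 ± 0.52 (SE, 1.59-fold, limma's adjusted p of 0.752) had an unadjusted 95% interval from -0.49 to 1.84. It was 0.31 without miR-132 replicate 1 (limma's unadjusted p of 0.515) and 1.04 without replicate 3 (unadjusted p of 0.0475, adjusted p of 0.346).

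Retnla went with the adipocyte markers. All 5 of these, Adipoq, Plin1, Lep, Fabp4 and Retn, averaged higher with miR-132, against 45.5% higher among all genes tested, and 0 had an unadjusted p under 0.05. Their mean ran from 8.11 to 12.10 in miR-132 wounds and from 7.96 to 10.74 in control wounds, and all 5 lay above the level filter. Across the 10 arrays Retnla correlated with this mean at r = 0.91 (permutation p of 0.00044, adjusted p of 0.022) and rho = 0.84 (permutation p of 0.0038, adjusted p of 0.127). Without miR-132 replicate 1 and control replicate 5, r was 0.81, and with each group centred it was 0.89. Of the 5 markers, Retn encodes resistin, a relative of the Retnla protein. Whether probes of one gene bind transcripts of the other was not tested. In miR-132 wounds Retn had the largest SD of the 5, 2.72, then Lep with 2.36, and Fabp4 the smallest, 0.31. In control wounds Lep led with 1.61, then Retn with 1.41. Neither this r nor the covariate fit given next was repeated without Retn. With the adipocyte mean as a covariate, also added after the data were seen, the Retnla difference was 0.15 ± 0.26 (SE, limma's adjusted p of 0.956). Its nearest genes were Cachd1 (r = 0.96), the complement inhibitor gene Cd59a (0.96) and the lipid flippase gene Atp10a (0.95).

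The Retnla promoter is shown because, of the 6 windows found, it is the only one with the STAT6 and the C/EBP pattern (chr16:48842359-48842658, plus strand, GRCm38.p6). Capitals are as for Acod1.
Retnla promoter: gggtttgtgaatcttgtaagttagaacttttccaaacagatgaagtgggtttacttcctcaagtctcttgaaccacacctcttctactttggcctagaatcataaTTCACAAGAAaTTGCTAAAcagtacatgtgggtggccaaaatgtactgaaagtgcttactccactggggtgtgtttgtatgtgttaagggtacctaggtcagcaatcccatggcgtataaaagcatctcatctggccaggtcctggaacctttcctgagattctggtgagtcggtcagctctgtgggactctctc
The STAT6 match, TTCACAAGAA, begins 145 bases before the start, and the C/EBP match, TTGCTAAA, begins 134 bases before it, so that 1 base parts them. The STAT6 pattern occurred in 7.0% and the C/EBP pattern in 10.8% of all promoter windows. In mouse, Retnla is known to be induced through STAT6 and C/EBP. The genes of that route on the array showed no member past the adjusted threshold: Cebpb differed by -0.36 (limma's unadjusted p of 0.0281, adjusted p of 0.598), Stat6 by -0.35 and the receptor genes Il4ra and Il13ra1 by -0.17 and -0.04, while the cytokine genes Il4 and Il13 lay below the level filter.

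Chil3, a secreted chitinase-like protein that binds sugars without cutting chitin, measured 6.93, 4.77, 5.97, 7.05 and 6.73 in miR-132 wounds. In control wounds it measured 6.26, 5.27, 5.68, 7.30 and 6.64. Each group had low and high arrays over the same range. The difference was 0.06 ± 0.50 (SE, limma's adjusted p of 0.988), with an unadjusted 95% interval from -1.06 to 1.18, and it changed sign without miR-132 replicate 1 (-0.10), 4 (-0.13) or 5 (-0.05) and without control replicate 2 (-0.18) or 3 (-0.08). Its nearest genes were Tubgcp4, part of the gamma-tubulin complex (r = 0.95), the nucleoporin gene Nup153 (0.95) and Chil4 (0.95). Chil4 is a near-identical neighbour copy of Chil3, and probes of one may bind transcripts of the other, so the Chil3 and Chil4 values are uncertain as to which copy they reflect. The promoter window of Chil3 held an NF-kB-like match.

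Il10, the anti-inflammatory cytokine gene, stayed between 3.63 and 4.22 in miR-132 wounds and between 3.61 and 3.96 in control wounds. At this level the array gave no usable range for it. In a fit without the level filter its difference was 0.13 ± 0.11 (SE, limma's adjusted p of 0.703).

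Of the 4 surface receptors, Cd163, Mgl2 and Clec10a followed each other across arrays, and all 4 had the same 2 highest arrays. Mrc1, the mannose receptor CD206, measured 14.51, 14.27, 14.30, 16.21 and 15.02 in miR-132 wounds. In control wounds it measured 14.84, 13.77, 14.79, 14.22 and 15.68. Cd163, the scavenger receptor for haemoglobin bound to haptoglobin, measured 11.20, 12.45, 12.02, 14.80 and 12.19 in miR-132 wounds. Its values in control wounds were 11.58, 12.47, 12.21, 10.82 and 13.26. For both genes miR-132 replicate 4 was the highest array and control replicate 5 the next, and the remaining arrays of the groups overlapped.

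The galactose-binding lectin genes Mgl2 (CD301b) and Clec10a (CD301a) had the same 2 highest arrays. Mgl2 measured 6.23, 6.11, 6.23, 7.10 and 6.21 in miR-132 wounds, and 6.30, 6.43, 6.38, 5.68 and 6.73 in control wounds. Clec10a measured 10.09, 10.39, 10.30, 12.00 and 10.46 in miR-132 wounds, and 10.54, 10.41, 10.48, 8.73 and 11.67 in control wounds. Again miR-132 replicate 4 was highest and control replicate 5 next, and control replicate 4 was lowest for both. Apart from replicate 4, the miR-132 arrays of Clec10a lay within 10.09 to 10.46 and those of Mgl2 within 6.11 to 6.23.

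None of the 4 receptors differed between groups beyond this spread. The differences were 0.20 ± 0.44 for Mrc1, 0.46 ± 0.67 for Cd163, 0.07 ± 0.23 for Mgl2 and 0.28 ± 0.53 for Clec10a (SE), with limma's adjusted p between 0.875 and 0.955. Their unadjusted 95% intervals ran from -0.79 to 1.19, from -1.03 to 1.95, from -0.44 to 0.59 and from -0.91 to 1.48. Without miR-132 replicate 4 all 4 turned lower with miR-132, to -0.14, -0.10, -0.11 and -0.06. Without control replicate 4, Mgl2 (-0.08) and Clec10a (-0.13) turned as well, and without control replicate 2 Mrc1 was -0.02.

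**Figure D3:**
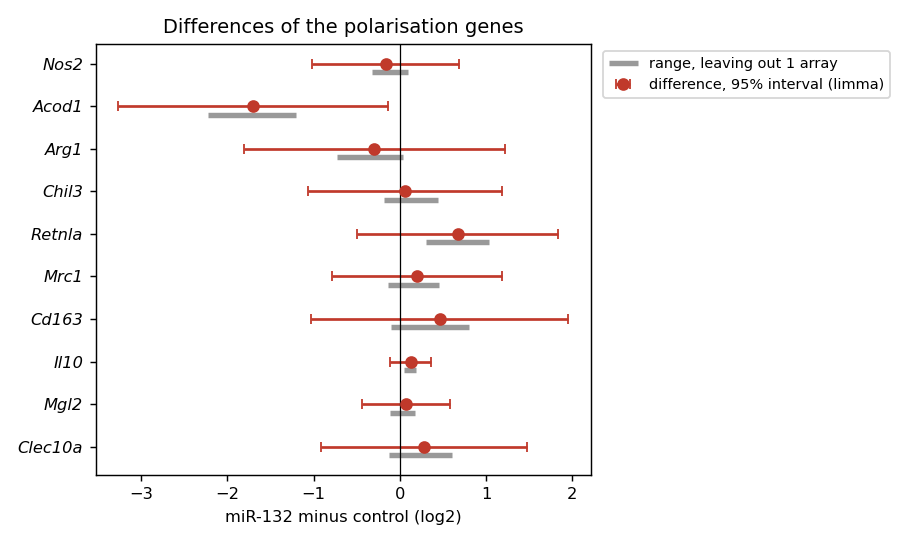
Difference of each gene, miR-132 minus control, in log2 units, with its 95% limma interval (red) and the range when 1 array at a time was left out (grey). The Acod1 interval lies below 0 before adjustment, and the other 9 intervals include 0.

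Over the 45 pairs of the 10 genes, 3 correlations passed a permutation test after adjustment, and all 3 lay among these receptors. After a further quantile normalization 4 passed, the added one being Arg1 with Il10 (r = -0.87, adjusted permutation p of 0.0178). On the values as deposited that pair had r = -0.78 (permutation p of 0.00558, adjusted p of 0.0628) and rho = -0.82 (permutation p of 0.00624, adjusted p of 0.139), and r was -0.85 without miR-132 replicates 3 and 5. Il10 lies below the level filter. Mgl2 and Clec10a had r = 0.96 (permutation p of 0.00042, adjusted p of 0.0137) and rho = 0.79 (permutation p of 0.00925, adjusted p of 0.139). Cd163 and Mgl2 had r = 0.91 (permutation p of 0.00061, adjusted p of 0.0137) and rho = 0.72 (permutation p of 0.0217, adjusted p of 0.198). Cd163 and Clec10a had r = 0.90 (permutation p of 0.00128, adjusted p of 0.0192) and rho = 0.72 (permutation p of 0.0227, adjusted p of 0.198). Spearman's rho thus did not pass for any of the 3. Without miR-132 replicate 4 and control replicate 4, r was 0.86, 0.65 and 0.79 in that order of pairs. The 3 pairs share the same 10 arrays and are not independent of each other. Mgl2 and Clec10a are neighbouring paralogs, and their probes may bind each other's transcripts.

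Mrc1 had no correlation with the other receptors that passed adjustment. Its r was 0.78 with Clec10a, 0.76 with Mgl2 and 0.73 with Cd163 (permutation p of 0.00795, 0.0112 and 0.0180, adjusted p of 0.0715, 0.0839 and 0.114), with rho of 0.79, 0.52 and 0.39 (permutation p of 0.00866, 0.124 and 0.263, adjusted p of 0.139, 0.559 and 0.698). Without miR-132 replicate 4 and control replicate 5 these r fell to 0.30, 0.13 and -0.09. Without miR-132 replicate 4 alone they were 0.64, 0.53 and 0.42. The pairs that passed were instead read without miR-132 replicate 4 and control replicate 4, so the falls in r are not comparable. Nos2 and Acod1 had r = 0.71 (permutation p of 0.0223, adjusted p of 0.114) and rho = 0.65 (permutation p of 0.0487, adjusted p of 0.306), and r = 0.05 without control replicates 2 and 4.

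The gene nearest to Mgl2 was Cd209d (r = 0.96), a C-type lectin gene of the DC-SIGN family, followed by Clec10a and the dynein light chain gene Dynll2 (0.96 each). For Clec10a the order was Dynll2 (0.97), Cd209d (0.96) and Mgl2 (0.96). For Cd163 it was the chemokine gene Ccl6 (0.94), Gprc5b (0.94) and Fcer1a, a chain of the high-affinity IgE receptor (0.92). For Mrc1 it was the glutathione transferase gene Gstm2 (0.94), Rbm19 (0.93) and Zfpm2 (0.93). Arrays of 1 tissue share overall composition and hybridisation, so these likenesses describe 10 libraries only.

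**Figure D4:**
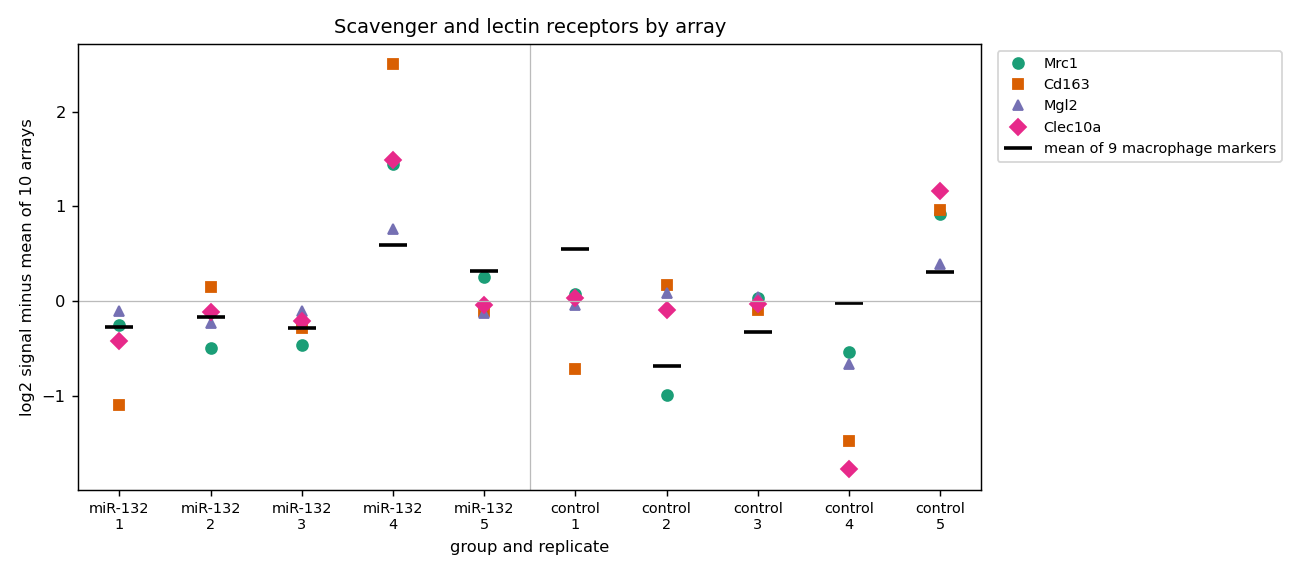
Log2 signal of Mrc1, Cd163, Mgl2 and Clec10a on each array, as the deviation from the gene's mean over all 10 arrays, with the mean of 9 macrophage markers as black bars, miR-132 arrays left of control arrays. The 4 receptors stand high together on miR-132 replicate 4 and control replicate 5 and below their means on control replicate 4, where the macrophage mean is 9.63.

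The macrophage identity of the tissue signal was read from 9 measured core markers, Adgre1, Csf1r, Cd68, Fcgr1, Mertk, C1qa, C1qb, C1qc and Aif1, all of them above the level filter. Their mean was 9.69 ± 0.40 in miR-132 wounds and 9.61 ± 0.50 in control wounds (SD, n = 5 each), with 5 of 9 higher, 4 lower and 0 at an unadjusted p under 0.05. Mrc1 had r = 0.80 with this mean (permutation p of 0.00379, adjusted p of 0.126) and rho = 0.72 (permutation p of 0.0236, adjusted p of 0.472), and r was 0.81 without miR-132 replicate 4 and control replicate 1. For Cd163, Mgl2 and Clec10a r was 0.39, 0.38 and 0.46 (permutation p of 0.277, 0.280 and 0.181), with rho of 0.10, 0.10 and 0.52 (permutation p of 0.783, 0.790 and 0.135). On control replicate 4 the macrophage mean was 9.63, near the middle of its range, while Clec10a, Mgl2 and Cd163 had their lowest values. When each gene was set relative to this mean on the same array, 0 of the 10 passed the exact permutation test, two-sided, over 252 arrangements. The smallest p that this exact permutation test can give is 0.0079. After adjustment over the 10 genes, 1 gene alone could therefore not pass, so the count of 0 is not read as absence of change. Relative to the macrophage mean Acod1 was 1.77 lower on the log2 scale in miR-132 wounds (-0.11 ± 0.38) than in control wounds (1.66 ± 1.86, SD, n = 5 each, exact permutation p of 0.0873, adjusted p of 0.873). The pooled SD within groups was smaller on this relative scale for 4 genes, most of all for Mrc1 (0.49 relative, 0.77 as measured), and larger for the other 6, such as Nos2 (0.92 relative, 0.66 as measured).

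Other genes of polarisation were counted in 4 lists, and 0 of their members passed adjustment over all genes. Counts are of list genes above the level filter. The lists were chosen with earlier results of these data known. Their shares beside those of all genes are therefore descriptions, and no list was tested as a set. Brighter genes leaned lower: with the level filter at the 75th percentile, 853 of 10255 genes were lower and 78 higher at limma's unadjusted p under 0.05. The list genes were not matched by level to the genes they are set beside. In the inflammatory program 16 of 19 measured genes averaged lower and 3 higher with miR-132, with a median of -0.19 against -0.02 over all genes tested, of which 54.5% were lower. The neutrophil markers, lower in 9 of 9 cases with a median of -0.54, and the keratinocyte markers, lower in 4 of 4 with a median of -0.27, moved the same way, and their part in this list was not tested. Those at an unadjusted p under 0.05 were 3, all lower (15.8% of the list, against 5.62% lower among all genes): the cytokine gene Tnf at -0.78 ± 0.24, Socs3, a brake on interleukin-6 signals, at -0.41 ± 0.17, and the glucose transporter gene Slc2a1 at -1.45 ± 0.65 (SE). Tnf ran at 5.73 ± 0.25 in miR-132 wounds and 6.51 ± 0.52 in control wounds (SD, n = 5 each). Il12a and Cxcl10 of this list lay below the level filter and are not among the 19. In the fit without the filter Cxcl10 was higher with miR-132, at 0.22 ± 0.09 (SE, limma's unadjusted p of 0.0325, adjusted p of 0.574), and Il12a differed by -0.05. In the alternative program 16 of 22 averaged higher and 6 lower, with a median of 0.18. Only Cd209a, a lectin gene of dendritic cells and some macrophages, had an unadjusted p under 0.05 (0.44 ± 0.15, SE; 4.54% of the list, against 2.46% higher among all genes), and next came Egr2 at -0.15 and Cd209d at 0.76.

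Cd209a measured 5.82, 5.50, 5.36, 5.60 and 5.83 in miR-132 wounds, and 5.32, 4.83, 5.20, 4.98 and 5.57 in control wounds. All 5 miR-132 values exceeded the control mean, and control replicate 5 overlapped them. It did not pass adjustment (limma's adjusted p of 0.598).

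Of 21 measured genes for polarising signals, receptors and factors, 17 averaged lower and 4 higher, with a median of -0.12. In this list 5 had an unadjusted p under 0.05, all lower (23.8%, against 5.62% lower among all genes). They were Klf4, a transcription factor of macrophages and also of keratinocytes, at -0.83, the NF-kB regulator gene Bcl3 at -0.40, Socs1, which brakes interferon and interleukin-4 signals, at -0.19, Stat3, which carries interleukin-10 and interleukin-6 signals, at -0.66, and Cebpb at -0.36. Stat3 measured 9.02 ± 0.46 in miR-132 wounds and 9.67 ± 0.27 in control wounds (SD, n = 5 each), and the 4 cytokine genes Ifng, Il4, Il13 and Csf2 lay below the level filter. Beside these, keratinocyte markers averaged lower in 4 of 4 cases, against 54.5% lower among all genes, and 1 of them, Trp63, had an unadjusted p under 0.05. Krt5 stood at the signal limit on 8 of 10 arrays and Krt14 on 9 of 10, so that their lower averages rest on miR-132 replicates 1 and 5. The mean of the 4 ran from 13.16 to 13.99 in miR-132 wounds and from 13.71 to 13.99 in control wounds, and their part in the values of this list was not tested.

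Of 17 measured genes of arginine and itaconate metabolism, 12 averaged lower and 5 higher, with a median of -0.09. Gch1, which makes the cofactor that nitric oxide synthases need, had a difference of -0.42 ± 0.15, and the arginine transporter gene Slc7a1 one of -0.29 ± 0.11 (SE), both at an unadjusted p under 0.05 (11.8% of the list, against 5.62% lower among all genes). The citrate synthase gene Cs followed at -0.59. All were short of limma's adjusted threshold (adjusted p of 0.598 for Gch1 and Slc7a1).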

How the data were processed

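Wound-edge skin of 10 mice, 5 per group, was measured on Affymetrix mouse Clariom D arrays from 150 ng of total RNA. Affymetrix Expression Console 1.4 and RMA are named in the submitters' processing notes as the authors' software. No label gives a scale for the deposited values, which were read as log2 from their range and their shared limit of 19.93, the log2 of 1000000. Such values compress low signals, and a level is not comparable between genes. Not given in the sources used here is the build on which features were placed. All 10 columns matched a sample by accession, and 0 were left over.

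Genes came from the platform annotation, with symbols updated by gene identifier. Irg1 is thereby Acod1. Of 72688 features, 31080 named 1 gene and 1670 several, and features with several were not used. Limma 3.58.1 in R 4.3.3 (lmFit, eBayes with intensity trend, no covariate, two-sided, Benjamini-Hochberg over 17567 genes) gave differences, miR-132 minus control, and moderated SEs. Correlations used 100000 permutations, and values relative to macrophage markers an exact permutation test. The procedure was tested on simulated data. Alternatives changed the filter, normalization, trend, array weights, arrays, covariates and block. The members and lists were chosen with earlier results of these data known. Named genes were the 10 members, list genes under an unadjusted p of 0.05 (at least the 3 lowest p per list), and the 3 genes nearest to each member. Further list genes on the Retnla route (Stat6, Il4ra, Il13ra1) were named after their values were seen, as was Arg2's level. Each group holds 5 mice per the labels' design text, and the number of arrays limits the precision.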

Additional observations from a re-analysis of the deposited data

Results flagged for a closer look

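In groups of 5 arrays, a sample was singled out when its gap to the nearest other array exceeded 0.71 of the group's range (Dixon's criterion). Of 40 groups examined, 4 held such a sample, where chance gives about 1 in 20. Mgl2 stood at 7.10 on miR-132 replicate 4, against 6.11 to 6.23 on the other miR-132 arrays. Clec10a stood at 12.0 on the same array, against 10.09 to 10.46. Mrc1 relative to the macrophage marker mean was also highest there, at 5.97 against 4.79 to 5.13. Acod1 relative to that mean was lowest on miR-132 replicate 1, at -0.76 against -0.05 to 0.23.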

How the results depend on the processing

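Without miR-132 replicate 3, 55 genes passed limma's adjusted threshold, and 0 passed without any other single array or in any other alternative. None of the 10 polarisation genes passed in any alternative run. The genes at an unadjusted p under 0.05 numbered 1420, and 2618 without the level filter, 931 with the filter at the 75th percentile and 944 (without control replicate 5) to 2473 (without miR-132 replicate 3) when single arrays were left out. With the hybridisation controls as a covariate, Chil3 (-0.082), Mrc1 (-0.17), Cd163 (-0.35), Mgl2 (-0.22) and Clec10a (-0.32) turned lower. In that fit Retnla was 1.73 (limma's unadjusted p of 0.0165, adjusted p of 0.530) and Arg1 -1.68 (unadjusted p of 0.0553, adjusted p of 0.541). Il10, fitted with this covariate but without the level filter, was 0.31 (limma's unadjusted p of 0.0439, adjusted p of 0.540). The median of the 10 genes was -0.20. The mean of the hybridisation controls was 10.90 to 10.98 on miR-132 replicates 3, 4 and 5 and 10.43 to 10.61 on all other arrays. This covariate is thus partly aligned with the groups. Chil3 was -0.0040 after median centring. The cause of these shifts was not tested. Leaving out single arrays gave ranges of -0.33 to 0.094 for Nos2, -0.73 to 0.033 for Arg1, -0.18 to 0.44 for Chil3, -0.14 to 0.46 for Mrc1, -0.10 to 0.80 for Cd163, -0.11 to 0.18 for Mgl2 and -0.13 to 0.61 for Clec10a. Correlated pairs that passed adjustment numbered 3, and 4 after quantile normalization. Acod1 stayed lower and Retnla and Il10 higher in each alternative that tested them. The 75th percentile filter removed Nos2, Retnla and Il10. With replicate number as a block, 0 genes passed adjustment and 1264 lay under the unadjusted mark, and Acod1 had a limma unadjusted p of 0.0071 (adjusted p of 0.661). With each gene centred on its group mean, the deviations of same-numbered arrays correlated at only -0.03 to 0.17 over the genes tested. The closest control array had the same number for miR-132 replicates 1 and 2 but not for 3, 4 and 5. The numbers are therefore not taken to pair the mice. Averaging several features per member was not run, as each has 1. Low signal limits Nos2 and Il10.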

Other observations

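Markers of other leukocytes ran at different levels. All 6 eosinophil and basophil markers lay below the level filter, with a mean per array of 3.55 to 3.75 in miR-132 wounds and 3.52 to 3.81 in control wounds. Of 7 dendritic cell markers, Flt3, Zbtb46, Xcr1 and Clec9a lay below it, and the mean of the other 3 lay between 5.00 and 5.48 in miR-132 wounds and between 5.06 and 5.27 in control wounds. Monocyte markers averaged 8.19 ± 0.41 in miR-132 wounds and 8.34 ± 0.26 in control wounds (SD, n = 5 each), with 3 higher and 3 lower.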
